A study of Mus musculus with 8 samples.

Results

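The 39 genes described here are plasma carrier, acute-phase and complement genes, chosen as a list of mouse symbols. The rule holds no value of these data, but the list was drawn up with earlier results of these data known. All 39 were found by their Entrez identifier among the 23403 genes of the count table. They comprised 8 carriers, 6 genes of the lipocalin, amyloid and pentraxin type, 9 of the inter-alpha-trypsin inhibitor and cystatin type, 8 complement components, 4 complement regulators and 4 other serpins. Read counts had been measured by RNA-seq in Hepa-1c1c7 (Hepa-1) mouse hepatoma cells, in 2 libraries of cells given 25 µM CrK2O4, a Cr(VI) salt, for 90 minutes and in 2 libraries of control cells. The control libraries were cells without chromium, but their labels do not say whether they had been passaged for the acute or for the long-term regimen. Open chromatin had been mapped by FAIRE-seq, which recovers DNA not crosslinked to protein, with 1 library for each of 4 conditions: the acute 25 µM dose, its control, a long-term dose of 0.5 µM kept up over 20 passages, and its control. RNA-seq at 0.5 µM was not analysed here.

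Hepatocytes secrete most plasma proteins: carriers such as albumin and transferrin, the acute-phase proteins whose synthesis changes in inflammation, the complement components and a large family of serine protease inhibitors (serpins). In the acute-phase response, cytokines of the IL-6 and IL-1 families act on hepatocytes through STAT3, C/EBP factors and NF-kB. The messages of haptoglobin, hemopexin, serum amyloid A, orosomucoid and lipocalin 2 then rise, while those of albumin, transthyretin, retinol binding protein 4 and transferrin fall. Complement is a cascade of plasma proteases and binding proteins that meets at C3 and ends in the membrane attack complex built from C5 to C9.

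Hepa-1 is an established line from a mouse liver tumour. The fetal liver protein Afp had 4376 and 5144 counts in the treated and 5185 and 5889 counts in the control libraries, and Alb was abundant. Hnf4a, a central hepatocyte transcription factor, had 15 counts in each treated library and 8 and 10 in the control libraries. The 4 libraries held 32319676 to 37696116 counts. The treated libraries differed from each other far more than the controls did: 1404 genes were more than 2-fold apart between the treated libraries and 83 between the controls, with a log2 CPM correlation of 0.974 and 0.997 (CPM being the counts scaled to a common library size). A chi-square statistic per gene of 115 between the treated and 2.08 between the control libraries, where counting noise alone gives about 1, showed that replicate libraries were not copies of each other. The labels do not say that replicates were separate cultures, so the p-values below measure the spread between these libraries, which may be technical. These are bulk cultures, in which fewer cells of a kind and less RNA per cell cannot be told apart.

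The messages of the tested members were mostly higher after 25 µM Cr(VI). All members together took 0.713% and 0.683% of the counts of the treated libraries and 0.340% and 0.345% of those of the controls. Alb made up much of this sum, and without it the treated libraries stood at 0.336% and 0.365% and the control libraries at 0.245% and 0.247%. In edgeR's quasi-likelihood test over 13619 genes, 7 of the 22 members with enough counts rose at an adjusted p under 0.05 and 0 fell. The 7 were the carriers Alb, Ttr, Rbp4 and Hp, the inter-alpha-trypsin inhibitor heavy chain Itih2, the C1 inhibitor Serping1 and angiotensinogen (Agt). They were 31.8% of the tested members, where 4.63% of all tested genes changed and 1.78% rose. Serping1 passed the low-count filter only through the treated libraries.

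Of the 39 members, 17 did not pass the low-count filter, 5 of them with no count in any library and 12 with at most 26 counts in a library. Among the 22 that passed, 18 did so on the level of either group alone, and 4 (Saa4, Serping1, Serpinf2 and Serpind1) only through the treated libraries, so these 4 were favoured to appear higher. Among the 18, 6 rose and the median log2 fold change was 0.87. Of the 12638 genes of the whole table that passed in this way, 539 changed (adjusted p under 0.05, edgeR) and the median was -0.0085. Over all 22 the median was 1.08, beside -0.0047 for all tested genes. In 17 of the 22 both treated libraries lay above both controls, against 32.2% of all tested genes, and in 3 (Lcn2, Kng1 and C4b) both lay below. Groups that did not overlap were thus found in 20 members, 90.9% of those tested, but were also common in the data at large, at 66.3% of all tested genes. An unadjusted p under 0.05 (edgeR) was found in 18 of the 22, beside 30.7% of all tested genes. DESeq2 called 16 of the 22, with 14 higher and Lcn2 and C4b lower, where it called 14.6% of all genes tested. The plot of levels by library shows the values behind these counts.

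**Figure D1:**
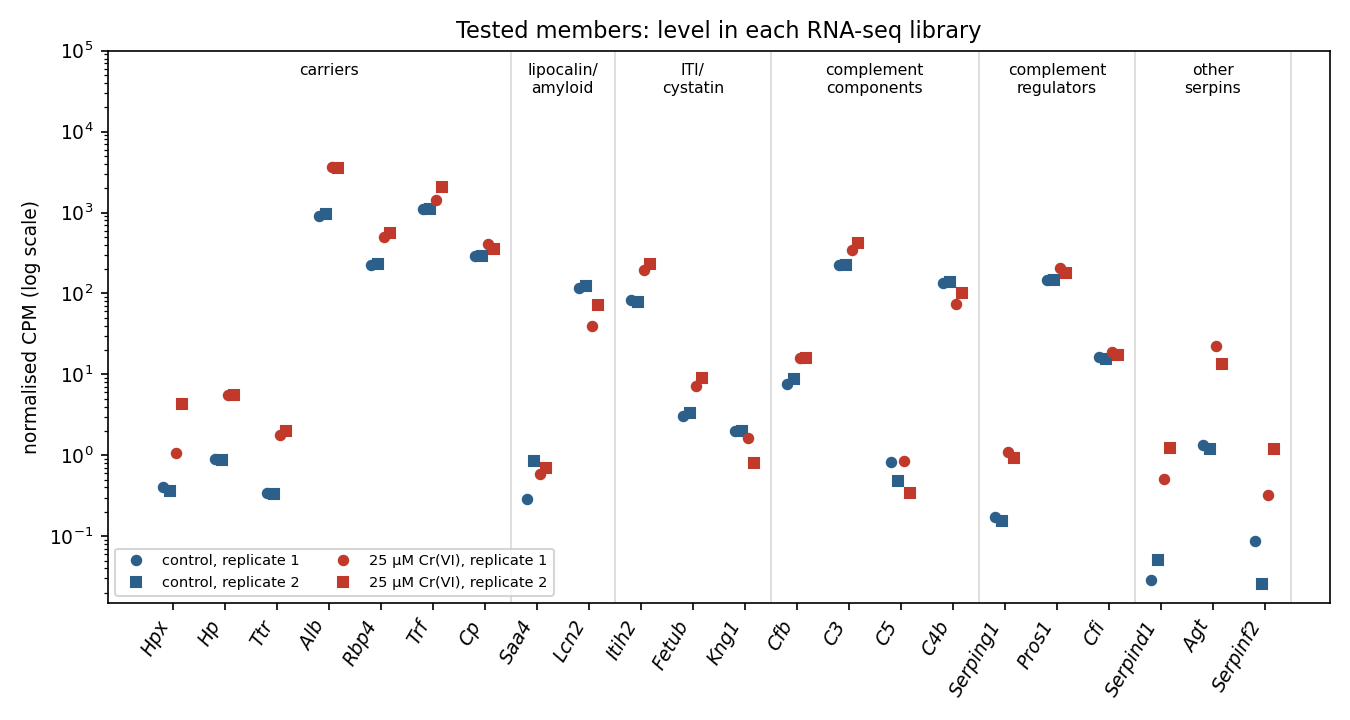
Normalised CPM (log scale) of the 22 tested members in each of the 2 control (blue) and 2 treated (red) RNA-seq libraries, grouped by role and ordered by fold change within a role. The red points lie above the blue ones in 17 members, below them in Lcn2, Kng1 and C4b, and overlap them in Saa4 and C5.

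**Figure D2:**
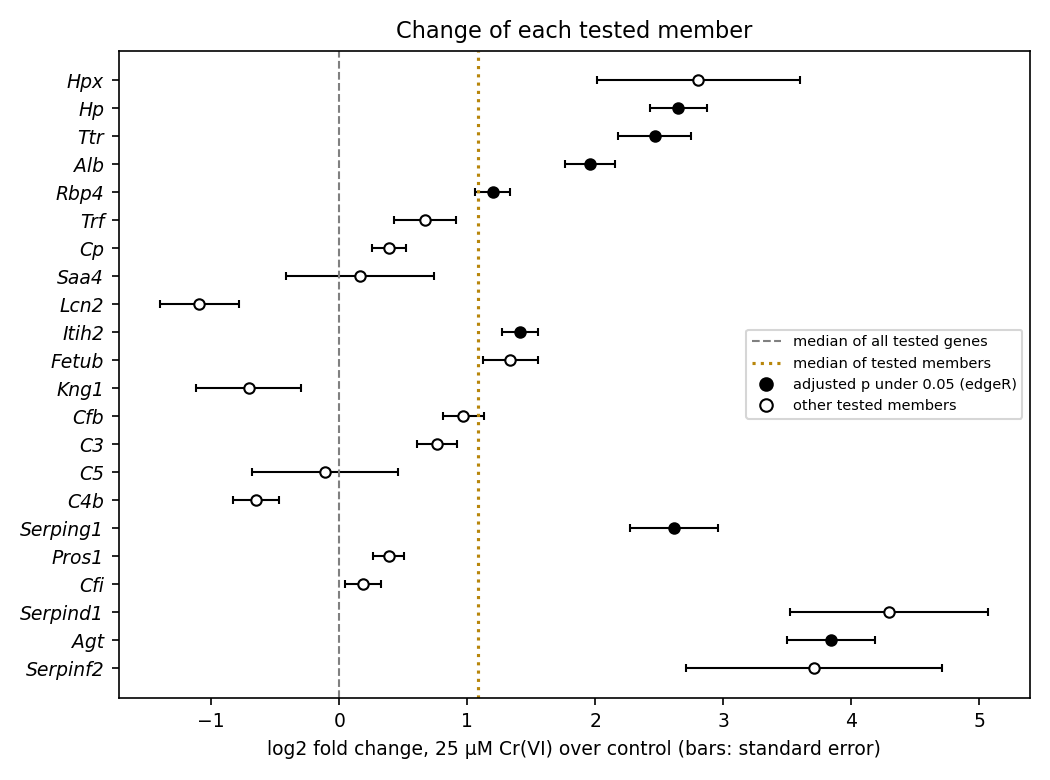
Log2 fold change of the 22 tested members, treated over control, with the standard error derived from edgeR's F statistic as bars. The 7 filled points have an adjusted p under 0.05 and all lie right of 0, and the median of the tested members (dotted) is 1.08, beside -0.0047 for all tested genes (dashed).

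The promoter windows of called members, and of Lcn2 as a member with lower values in both treated libraries, are shown because their letters differ plainly in base composition and in the motifs they hold. Each runs from 250 bases before an annotated start of the gene to 50 after it, read 5′ to 3′ on the strand of the gene from RefSeq, build GRCm38.p6. Capitals mark matches to the searched motifs on either strand. Rbp4 has 2 windows, at the outer start of the gene and at a start inside it, and which of them these cells used was not measured. Hp, Ttr and Serping1 had no entry in the promoter table.
Alb (chr5:90460620-90460919, plus strand): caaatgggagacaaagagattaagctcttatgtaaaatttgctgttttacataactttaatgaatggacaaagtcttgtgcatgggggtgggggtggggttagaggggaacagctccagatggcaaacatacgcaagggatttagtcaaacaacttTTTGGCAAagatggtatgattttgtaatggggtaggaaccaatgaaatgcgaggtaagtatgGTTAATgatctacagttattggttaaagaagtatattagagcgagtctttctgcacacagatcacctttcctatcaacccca
Agt (chr8:124569657-124569956, minus strand): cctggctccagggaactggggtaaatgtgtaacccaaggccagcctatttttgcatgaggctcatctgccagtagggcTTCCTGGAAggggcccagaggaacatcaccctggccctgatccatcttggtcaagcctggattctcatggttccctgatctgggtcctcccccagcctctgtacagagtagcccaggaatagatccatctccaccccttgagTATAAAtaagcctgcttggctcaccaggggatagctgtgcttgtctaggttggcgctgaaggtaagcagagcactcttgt
Itih2 (chr2:10130634-10130933, minus strand): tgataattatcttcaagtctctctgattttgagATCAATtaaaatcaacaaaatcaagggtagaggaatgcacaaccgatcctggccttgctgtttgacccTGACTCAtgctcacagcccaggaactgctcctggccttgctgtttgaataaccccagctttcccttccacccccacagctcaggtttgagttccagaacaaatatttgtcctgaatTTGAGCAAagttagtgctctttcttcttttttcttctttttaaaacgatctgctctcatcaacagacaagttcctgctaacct
Rbp4, outer start (chr19:38125272-38125571, minus strand): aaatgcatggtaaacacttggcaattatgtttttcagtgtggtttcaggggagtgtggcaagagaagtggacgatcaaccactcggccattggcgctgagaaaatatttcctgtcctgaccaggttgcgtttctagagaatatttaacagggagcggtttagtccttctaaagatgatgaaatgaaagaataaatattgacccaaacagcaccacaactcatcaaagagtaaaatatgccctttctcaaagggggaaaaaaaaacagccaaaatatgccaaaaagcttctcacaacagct
Rbp4, inner start (chr19:38124762-38125061, minus strand): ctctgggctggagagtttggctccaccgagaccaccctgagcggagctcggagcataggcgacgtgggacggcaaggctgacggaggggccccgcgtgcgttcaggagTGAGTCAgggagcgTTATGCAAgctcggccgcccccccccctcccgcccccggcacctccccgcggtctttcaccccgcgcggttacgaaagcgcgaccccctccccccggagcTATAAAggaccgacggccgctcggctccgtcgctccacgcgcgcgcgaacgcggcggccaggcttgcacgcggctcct
Lcn2 (chr2:32387690-32387989, minus strand): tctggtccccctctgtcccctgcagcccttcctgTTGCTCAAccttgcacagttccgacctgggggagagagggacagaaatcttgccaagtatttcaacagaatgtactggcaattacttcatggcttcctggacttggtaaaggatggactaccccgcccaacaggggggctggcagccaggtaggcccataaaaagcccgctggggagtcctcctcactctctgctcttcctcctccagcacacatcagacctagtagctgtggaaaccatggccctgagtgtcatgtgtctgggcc
The windows of Alb and Itih2 were 40.0% and 42.3% G and C, that of Agt 54.7%, that of Lcn2 56.3%, and those of Rbp4 40.7% at the outer and 72.0% at the inner start. A TATA box (TATAAA) began 30 bases before the start of Agt and 28 before the inner start of Rbp4. An AP-1 motif (TGACTCA) lay 149 bases before the start in Itih2 and 142 bases before it, on the opposite strand, at the inner start of Rbp4. The window at the outer start of Rbp4 held 0 matches. A C/EBP motif (TTGCNNAA) was found in Alb, Itih2, Lcn2 and the inner window of Rbp4, an HNF1 motif (GTTAAT) 32 bases before the start of Alb, an HNF6 motif (ATTGAT) in Itih2, and the palindromic STAT motif (TTCNNNGAA) 172 bases before the start of Agt.

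Promoter windows were present for 29 of the 39 members, 33 windows in all, and a gene was counted where any of its windows held the motif. The C/EBP motif occurred in 12 of them (41.4%), where 12.2% of the 27025 genes with a window held it, and the HNF1 motif in 7 (24.1%, beside 8.24%). TATAAA occurred in 10 members (34.5%, beside 15.7%), the STAT motif in 6 (20.7%, beside 9.55%), the HNF6 motif in 6 (20.7%, beside 8.63%) and the AP-1 motif in 3 (10.3%, beside 5.95%). The HNF4 motif CAAAGTCC and the NF-kB motif GGGACTTTC were in 0 member windows, beside 1.63% and 0.403% of all genes. Both strands were searched, and overlapping matches of different motifs were each counted. These shares describe letters only. Members with the C/EBP motif included genes that rose (Alb, Itih2, Rbp4), one with lower values (Lcn2) and genes with hardly any counts (Ahsg, C9, Hrg, Saa1).

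The carriers were the role with the most called genes: 4 of the 7 tested carriers rose, where 1.78% of all tested genes did. In all 7 the treated libraries lay above both controls, as they did in 32.2% of all tested genes. Alb (Entrez 11657, chr5:90460870-90476602, plus strand), the most abundant plasma protein and a general carrier of fatty acids, hormones and metals, had 124057 and 102810 counts after treatment and 31450 and 37046 in the controls. Both treated libraries were far above both controls. At a normalised level of 3608 ± 82.9 CPM (SD, n = 2) against 926 ± 30.3 CPM (SD, n = 2), this was a 3.90-fold rise with a log2 fold change of 1.96 (SE 0.196, edgeR adjusted p = 0.032).

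Transthyretin and retinol binding protein 4 travel in plasma as a complex that carries thyroid hormone and retinol. Ttr, on chromosome 18, was scarce, with 61 and 57 counts in the treated and 12 and 13 in the control libraries. Its groups were well apart, and it rose 5.52-fold (log2 2.46, SE 0.286, edgeR adjusted p = 0.033). Rbp4 (Entrez 19662, chr19:38116620-38125321, minus strand) was abundant, with 16649 and 16082 counts in the treated and 7745 and 9109 in the control libraries. The treated libraries were close to each other and above both controls, a rise of 2.30-fold (log2 1.20, SE 0.137, edgeR adjusted p = 0.033). Alb, Ttr and Rbp4 are among the proteins whose messages fall in the classical acute-phase response, and all 3 rose here. Trf, another of them, was not called (log2 0.67, SE 0.245, edgeR adjusted p = 0.157). Whether that response took part was not tested.

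Haptoglobin and hemopexin, which bind free hemoglobin and heme, are raised in that response. Hp (Entrez 15439, chr8:109575128-109579172, minus strand) had 188 and 160 counts in the treated and 31 and 34 in the control libraries. After scaling, its 2 treated values were almost equal at 5.56 and 5.52 CPM, against 0.892 and 0.870 CPM in the controls. It rose 6.27-fold (log2 2.65, SE 0.221, edgeR adjusted p = 0.028). Hpx had 36 and 125 counts in the treated and 14 in each control library. Both treated libraries were above the controls but lay several-fold apart, and the log2 fold change of 2.80 (SE 0.793) did not pass the test (edgeR adjusted p = 0.110). It was 1.48 without treated replicate 2 and 3.51 without treated replicate 1.

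The metal carriers had smaller fold changes. Trf, the iron carrier, had 48464 and 60117 counts in the treated and 38032 and 43451 in the control libraries, with a log2 fold change of 0.67 (SE 0.245, edgeR adjusted p = 0.157). Cp, the copper ferroxidase ceruloplasmin, had 13673 and 10389 counts in the treated and 10116 and 11387 in the control libraries. On the normalised scale both treated libraries exceeded both controls in Cp, at 404 and 359 against 291 and 291 CPM, with a log2 fold change of 0.39 (SE 0.131, edgeR adjusted p = 0.141). Cp overlaps Hps3, which had 589 to 1005 counts, on the opposite strand, and whether the authors' counting used strand is not given in the sources used here. Serpina6, the corticosteroid carrier, had 0 counts in every library.

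Per kilobase of exon, Trf and Alb were the members with the highest control levels, at 473 ± 5.28 and 449 ± 14.7 RPKM (SD, n = 2), and the 2 genes did not overlap. In the treated libraries Alb stood at 1751 ± 40.2 RPKM and Trf at 752 ± 195 RPKM. Rbp4 came after these in both groups, at 176 ± 5.56 RPKM in the controls and 404 ± 34.4 RPKM in the treated libraries. Lcn2 stood next in the controls at 140 ± 6.66 RPKM. Cp, Pros1 and C3 followed at 46.5 ± 0.0305, 44.8 ± 0.228 and 43.8 ± 0.108 RPKM. After treatment C3, Itih2, Lcn2, Cp and Pros1 lay between 58.7 and 74.3 RPKM with spreads that overlapped, so their order was not resolved. Itih2 and C4b did not differ beyond their spread in the controls (25.8 ± 1.25 and 25.4 ± 0.427 RPKM) but stood apart after treatment (68.7 ± 8.54 and 16.2 ± 3.52 RPKM). The plot against expression level shows the called members at low and high abundance.

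**Figure D3:**
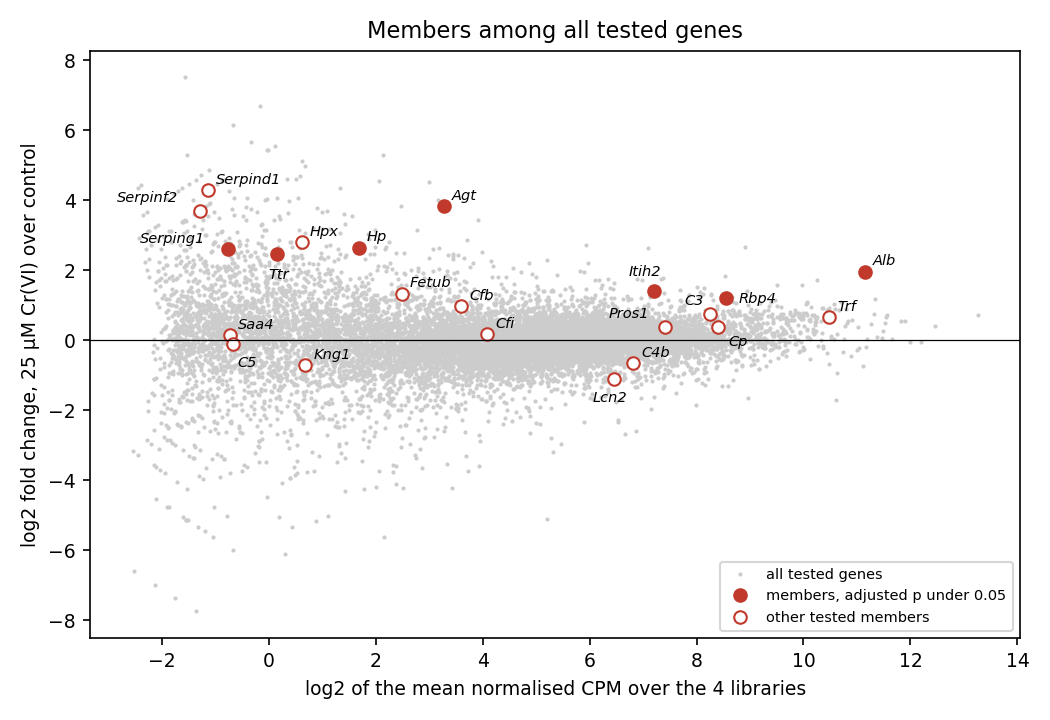
Log2 fold change, treated over control, against the log2 of the mean normalised CPM over the 4 libraries, for all 13619 tested genes (grey) and the 22 tested members (red). The 7 filled members, with an adjusted p under 0.05, run from Serping1 with a mean of 0.588 CPM to Alb with a mean of 2267 CPM, and all lie above 0.

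Among the lipocalin, amyloid and pentraxin genes none of the 2 tested members changed at an adjusted p under 0.05 (edgeR), while 1, Lcn2, had an unadjusted p under 0.05 (30.7% of all tested genes did) and was called lower by DESeq2. Lcn2, a lipocalin that binds bacterial iron chelators and an acute-phase protein that usually rises, had 1347 and 2093 counts in the treated and 4011 and 4825 in the control libraries. Both treated libraries were below both controls, with 56.0 ± 22.9 CPM against 119 ± 5.68 CPM (SD, n = 2 each). The log2 fold change was -1.09 (SE 0.307, edgeR adjusted p = 0.109). Saa4, a constitutive serum amyloid A, had 20 counts in each treated library and 10 and 33 in the controls, which enclosed the treated values (log2 0.16, SE 0.579, edgeR adjusted p = 0.872). The inducible Saa1 had 1 and 3 counts in the treated and 3 and 11 in the control libraries and was not tested. Its ratio of summed, scaled counts was 0.336 (exact 95% interval 0.0805 to 1.07, counting error only). Orm1, Azgp1 and Apcs had at most 5 counts in a library, and Apcs, the serum amyloid P pentraxin, had 0 in all. Saa1 and Orm1 belong to families of near-identical copies, between which reads may have been split.

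Inter-alpha-trypsin inhibitor heavy chains are carried in plasma bound to bikunin and attach to hyaluronan in the extracellular matrix. Itih2 (Entrez 16425, chr2:10094591-10130683, minus strand) had 6619 and 6759 counts in the treated and 2900 and 3046 in the control libraries. The treated and control values were widely separated, and Itih2 rose 2.66-fold (log2 1.41, SE 0.139, edgeR adjusted p = 0.032). The other 3 heavy chain genes among the members had few counts: Itih1 and Itih3 had at most 1 count in a library, and Itih4 had 6 and 10 counts in the treated and 2 and 1 in the control libraries. Ambp, the bikunin precursor, had 2 counts in 1 treated library and 0 in the others. Itih4, Itih3 and Itih1 lie side by side on chromosome 14, with gaps of 6.59 and 5.39 kb, whereas Itih2 lies on chromosome 2.

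The cystatin-type genes Ahsg, Fetub, Hrg and Kng1 form a cluster on chromosome 16, with gaps of 18.9, 11.3 and 96.6 kb. Their values went in different directions. Fetub, the fetuin B protease inhibitor, had 242 and 258 counts in the treated and 106 and 129 in the control libraries. The groups were apart, with a log2 fold change of 1.34 (SE 0.215) that narrowly missed the threshold (edgeR adjusted p = 0.051). Ahsg, fetuin A, had 26 and 7 counts in the treated and 1 and 2 in the control libraries. It was not tested, and the ratio of its summed, scaled counts was 12.9 (exact 95% interval 4.06 to 65.9, counting error only). Kng1, the kininogen that yields bradykinin, was the member of this cluster with lower values: 55 and 23 counts in the treated and 70 and 77 in the control libraries, with a log2 fold change of -0.71 (SE 0.408, edgeR adjusted p = 0.304) that was -0.29 without treated replicate 2 and -1.31 without treated replicate 1. Hrg, the histidine-rich glycoprotein between them, had 0 counts in every library.

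Among the 8 complement components, 4 were tested and 0 changed at an adjusted p under 0.05 (edgeR), while 3 had an unadjusted p under 0.05, beside 30.7% of all tested genes, and DESeq2 called those 3. C3, the hub of all activation routes, had 11516 and 12255 counts in the treated and 7812 and 8816 in the control libraries. It was higher in both treated libraries, with a log2 fold change of 0.76 (SE 0.157, edgeR adjusted p = 0.070). Cfb, the protease subunit of the alternative pathway convertase, had 546 and 463 counts in the treated and 268 and 340 in the control libraries, a log2 fold change of 0.97 (SE 0.162, edgeR adjusted p = 0.053). C4b, of the classical and lectin pathways, lay the other way: 2499 and 2918 counts in the treated and 4708 and 5422 in the control libraries, with a log2 fold change of -0.65 (SE 0.181, edgeR adjusted p = 0.106). C4b and Cfb lie 112 kb apart in the major histocompatibility complex on chromosome 17. The near-identical copy C4a, which may share reads with C4b, had 888 and 1063 counts in the treated and 1672 and 1950 in the control libraries, with a log2 fold change of -0.64 (SE 0.196, edgeR adjusted p = 0.125).

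The terminal components had few or no counts. C5, listed by RefSeq as Hc, had 29 and 10 counts in the treated and 29 and 19 in the control libraries, which overlapped fully (log2 -0.11, SE 0.568, edgeR adjusted p = 0.915). C8g had 4 to 8 counts in a library and C9 at most 1. C8a and C8b, which lie 11.1 kb apart on chromosome 4, had 0 counts in all libraries.

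Of the complement regulators, Serping1 rose and 2 others did not pass the test. Serping1 (Entrez 12258, chr2:84765360-84775444, minus strand), which inhibits the C1 proteases and plasma kallikrein, had 37 and 27 counts in the treated and 6 in each control library. The treated libraries were both above the controls, with a fold change of 6.12 (log2 2.61, SE 0.346, edgeR adjusted p = 0.039), and the gene passed the filter only through the treated libraries. Pros1, the vitamin K-dependent protein S that also binds the C4b-binding protein, had 6974 and 5249 counts in the treated and 5165 and 5767 in the control libraries. Its normalised values did not overlap, at 206 and 181 against 149 and 148 CPM (log2 0.39, SE 0.120, edgeR adjusted p = 0.126). Cfi, the protease that cleaves C3b and C4b, had 638 and 501 counts in the treated and 562 and 611 in the control libraries (log2 0.19, SE 0.144, edgeR adjusted p = 0.426). Vtn, vitronectin, had at most 3 counts in a library.

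The largest called fold change of any member was that of Agt (Entrez 11606, chr8:124556587-124569706, minus strand), a non-inhibitory serpin and the precursor of the angiotensin peptides. It had 769 and 391 counts in the treated and 46 and 47 in the control libraries. The treated libraries differed from each other, at 22.7 and 13.5 CPM, but both were far above the controls at 1.32 and 1.20 CPM. The rise was 14.3-fold (log2 3.84, SE 0.347, edgeR adjusted p = 0.029).

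The 3 other serpins pointed the same way at very low counts. Serpind1, heparin cofactor II, had 17 and 36 counts in the treated and 1 and 2 in the control libraries, a ratio of summed, scaled counts of 20.8 (exact 95% interval 6.74 to 104, counting error only), and missed the threshold (log2 4.30, SE 0.775, edgeR adjusted p = 0.059). It overlaps Pi4ka on the opposite strand, which had 1608 and 1338 counts in the treated and 2653 and 3006 in the control libraries, the reverse direction. Serpinf2, the plasmin inhibitor, had 11 and 35 counts in the treated and 3 and 1 in the control libraries, a ratio of 13.5 (exact 95% interval 4.94 to 51.7), with a log2 fold change of 3.71 (SE 1.00, edgeR adjusted p = 0.103). With 1 library left out, the log2 fold change ran from 2.51 (without treated replicate 2) to 4.69 (without control replicate 1) in Serpinf2 and from 3.52 (without treated replicate 2) to 4.83 (without treated replicate 1) in Serpind1. Its neighbour Serpinf1, the pigment epithelium-derived factor, 9.11 kb away on chromosome 11, had 6 and 19 counts in the treated and 4 in each control library and was not tested. In Serpinf1, Serpinf2, Serpind1 and Hpx the second treated library was the higher one, whereas in Agt and Ahsg it was the first.

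Leaving out 1 library changed how many members were called. Without control replicate 1 only Agt, Hp and Itih2 were called, and without control replicate 2 only Agt and Hp, with the lone control assumed to vary like the treated libraries. Without either treated library most members and most of all tested genes were called, since the spread then came from the 2 close controls. Fewer genes of the whole table were called without a control library than with all 4 libraries. Agt and Hp were called in all 10 alternatives run, among them the fits without a treated library, in which most tested genes were called.

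Genes of the same pathways outside the 39 were counted in the same way. Of 28 other complement genes 15 were tested, and 2 rose and 1 fell (20.0% called, beside 4.63% of all tested genes), with a median log2 fold change of 0.30. C6, which joins the membrane attack complex after C5, had 39 and 47 counts in the treated and 4 and 3 in the control libraries, and rose (log2 3.81, SE 0.436, edgeR adjusted p = 0.033) after passing the filter only through the treated libraries. Clu, clusterin, an inhibitor of that complex and a stress-induced chaperone, had 50066 and 41169 counts in the treated and 23275 and 27251 in the control libraries, and rose (log2 1.09, SE 0.157, edgeR adjusted p = 0.044). C3ar1, the receptor of the C3a peptide, had 7 and 3 counts in the treated and 62 and 70 in the control libraries, and fell (log2 -3.47, SE 0.403, edgeR adjusted p = 0.033). C3ar1 passed the filter only through the control libraries, where it was high. Of the 11 genes of this list that passed on the level of either group alone, 1 (Clu) was called.

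Of 32 other plasma protein genes 9 were tested, and 1 fell while 0 rose (11.1% called, beside 4.63% of all tested genes). Their median log2 fold change was 0.28, and it was 0.0037 in the 7 that passed the filter on the level of either group alone. The one that fell was Saa3, an amyloid A gene of inflamed tissues, with 93 and 92 counts in the treated and 318 and 347 in the control libraries (log2 -1.60, SE 0.194, edgeR adjusted p = 0.035). Saa3 and Lcn2 thus both had lower counts in each treated library, but Lcn2 did not pass the test.

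The receptors, kinases and factors of the IL-6, STAT3 and IL-1 routes were nearly all expressed, with 19 of 20 tested. Of these 3 changed (15.8%, beside 4.63% of all tested genes). The feedback inhibitor Socs3 had 2495 and 2748 counts in the treated and 1217 and 1446 in the control libraries, and rose (log2 1.23, SE 0.164, edgeR adjusted p = 0.039). Nfkbia, the NF-kB inhibitor and itself an NF-kB target, had 2649 and 2363 counts in the treated and 1275 and 1513 in the control libraries, and rose (log2 1.08, SE 0.109, edgeR adjusted p = 0.032). Il1rap, the shared chain of IL-1 receptors, had 71 and 65 counts in the treated and 224 and 239 in the control libraries, and fell (log2 -1.53, SE 0.200, edgeR adjusted p = 0.039). The median of the 19 was 0.01. The plot of the members beside these lists shows all their fold changes.

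**Figure D4:**
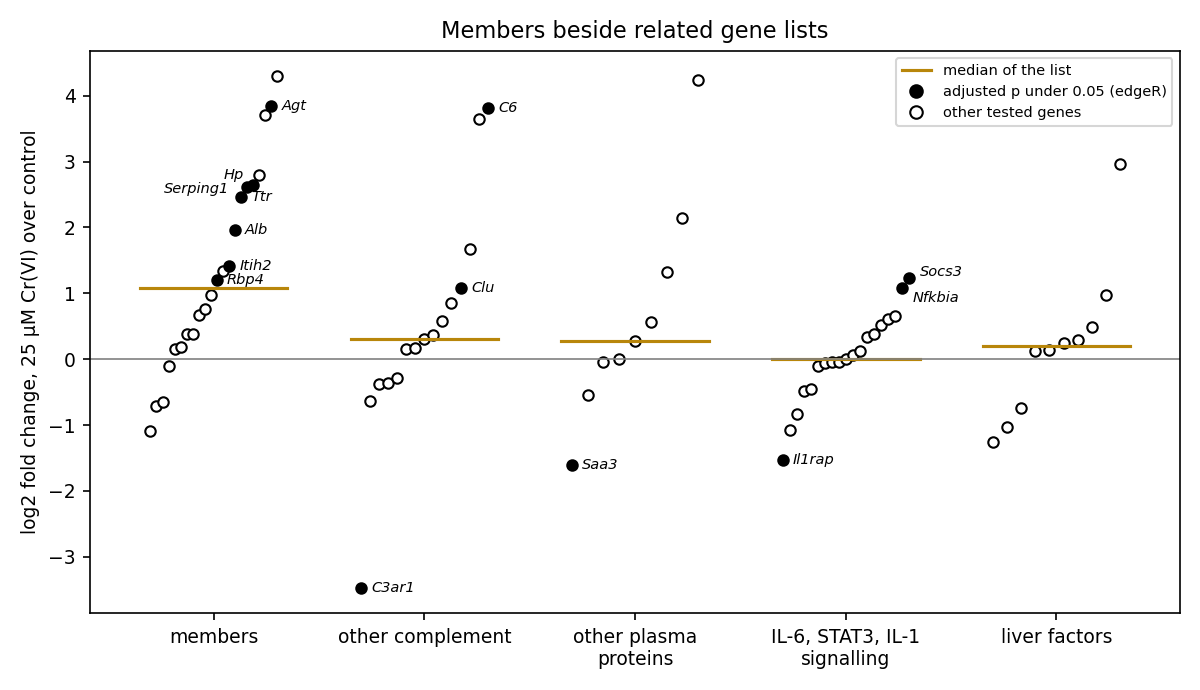
Log2 fold change, treated over control, of each tested gene among the members (22), other complement genes (15), other plasma protein genes (9), IL-6, STAT3 and IL-1 signalling genes (19) and liver transcription factors (10), ordered within each list. Filled points have an adjusted p under 0.05 (edgeR), horizontal bars are medians, and the median is 1.08 for the members and 0.01 for the signalling genes.

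Markers of other liver cell types were set beside these changes. Of all tested genes 4.63% changed (edgeR), 30.7% had an unadjusted p under 0.05 (edgeR) and DESeq2 called 14.6%. Of 7 macrophage markers 3 were tested and 0 changed (edgeR; 2 at an unadjusted p under 0.05, 0 by DESeq2), and their summed level was 44.9 to 63.6 CPM in the treated and 63.0 to 63.1 CPM in the control libraries. Of 6 endothelial markers 2 were tested, and 1 of them, Pecam1, rose, with 60 and 65 counts in the treated and 17 and 19 in the control libraries. The other tested one had a log2 fold change below 0 and was not called. The sum over the 6 was 4.49 to 6.71 CPM against 4.40 to 5.04 CPM, and Cdh5 was at 0. Of 7 stellate cell and fibroblast markers 5 were tested, 4 with a log2 fold change above 0 and 1 below, and 1, Dcn, was called. Dcn rose, with 32452 and 28900 counts in the treated and 15152 and 17307 in the control libraries. The sum over the 7 was 1278 to 1410 CPM against 691 to 702 CPM, while Lrat was at 0. Of 5 bile duct markers 4 were tested and 0 changed (edgeR; 2 at an unadjusted p under 0.05, 1 by DESeq2), with sums of 981 to 1305 CPM against 1503 to 1553 CPM. The part of these differences in the members' results was not tested.

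Open chromatin near the members was then compared between the exposure regimens. The peak lists hold regions open in treated cells, 2945 at 25 µM and 860 at 0.5 µM, each from 1 treated against 1 control library, without read counts and without a replicate check. No member had a peak centre within 10 kb of a transcription start site (TSS) in either list, where 4.62% of protein-coding genes had one at 25 µM. Within 50 kb, 6 of the 39 members (15.4%) had a peak at 25 µM, beside 17.0% of protein-coding genes, and 0 had one at 0.5 µM, beside 5.13%. Within 100 kb the counts were 11 members (28.2%, beside 28.7%) at 25 µM and 2 (C4b and Saa4, beside 9.41%) at 0.5 µM. The members' shares were thus near or below the background.

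The 6 members with a peak at 25 µM within 50 kb were C5 at 22.6 kb, Agt at 32.3 kb, Rbp4 at 37.5 kb, Azgp1 at 38.2 kb, Alb at 45.8 kb and C4b at 49.5 kb. The peaks nearest to C5, Agt and Alb are shown because they are the one that lies inside a member and the ones nearest to the called genes with the highest fold change and the highest level. They are given on the plus strand of GRCm38.p6, with capitals for matches to the same motifs.
C5 (chr2:35038710-35038856): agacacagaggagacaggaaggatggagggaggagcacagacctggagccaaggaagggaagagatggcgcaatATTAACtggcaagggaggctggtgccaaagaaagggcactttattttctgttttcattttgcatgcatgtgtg
Agt (chr8:124535280-124535397): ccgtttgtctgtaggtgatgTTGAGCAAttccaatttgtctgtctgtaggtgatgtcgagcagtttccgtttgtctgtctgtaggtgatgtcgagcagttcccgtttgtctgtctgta
Alb (chr5:90506561-90506739): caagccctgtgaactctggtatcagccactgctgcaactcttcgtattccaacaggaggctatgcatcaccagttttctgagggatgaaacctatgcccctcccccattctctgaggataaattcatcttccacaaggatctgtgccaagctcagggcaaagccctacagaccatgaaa
The C5 peak of 147 bp lies inside the gene and holds an HNF1 match, in a gene whose counts did not differ between groups. The Agt peak of 118 bp lies inside Cog2, repeats a stretch of its own sequence and holds a C/EBP match. The Alb peak of 179 bp lies inside the neighbouring gene Afp, whose level was close to equal in both groups (log2 0.03, SE 0.184, edgeR adjusted p = 0.918), and holds no match. The scores of these peaks were 50.6, 84.4 and 52.4, where the MACS score is 10 times the negative log10 of the p-value. None of the peaks within 50 kb of a member in either list reached a score of 100. The plot of peak distances gives all members.

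**Figure D5:**
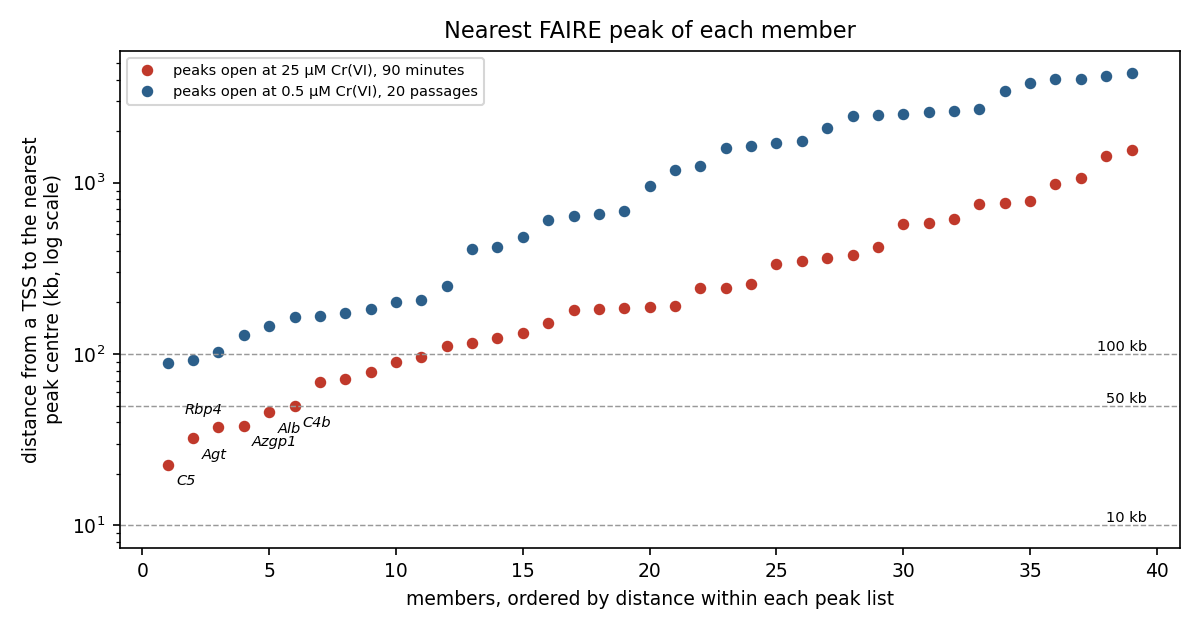
Distance from a TSS to the centre of the nearest FAIRE peak (kb, log scale) for each of the 39 members, ordered within each list, for peaks open after the acute 25 µM dose (red) and after the long-term 0.5 µM dose (blue). No point lies below 10 kb, 6 red points lie below 50 kb, and the median distance is 188.5 kb in the 25 µM list and 961 kb in the 0.5 µM list, beside 225.9 kb and 880 kb for protein-coding genes.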

How the data were processed

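RNA-seq values are raw read counts per Entrez gene, which the authors deposited after alignment with TopHat to mm10. The counting tool, annotation and strand setting are not given in the sources used here. The authors deposited for each peak a MACS score, which is its p-value as a negative log10 multiplied by 10, after alignment with BWA.

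Counts were filtered with filterByExpr (minimum count 10), scaled with TMM and tested with edgeR 4.0.16 (quasi-likelihood, two-sided, Benjamini-Hochberg over all 13619 tested genes, threshold 0.05, no block) in R 4.3.3. CPM and RPKM are TMM-scaled, and RPKM used RefSeq exon lengths of GRCm38.p6. The standard error (SE) of a log2 fold change is its absolute value divided by the square root of edgeR's F statistic. Of the 23403 Entrez identifiers 23305 matched RefSeq symbols. Peaks were assigned by the distance of their centre to any TSS of a gene. Alternatives were DESeq2 1.42.0, other normalizations, no filter, a replicate block, each library left out, and other peak windows and scores. The edgeR step was tested on simulated data.

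The members and lists were chosen with earlier results of these data known. Members with an adjusted p under 0.05 or a mean of at least 5 CPM are given in full and the others by counts, with some named after their values were seen. Of each list at most 6 genes with an adjusted p under 0.05 are named. Exact intervals cover counting error only. The peak lists give no depth.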

Additional observations from a re-analysis of the deposited data

How the results depend on the processing

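The 7 called members kept their direction in all 10 alternatives run, while the number of calls varied. DESeq2 called 2015 genes, 16 members, 6 other complement, 2 other plasma protein, 6 signalling and 3 liver factor genes. The replicate block gave 2969, 15 (13 higher and 2 lower), 7, 4, 6 and 4. The deviations of same-numbered libraries correlated at 0.091, and the numbers were not read as pairs. With controls this close (log2 CPM correlation 0.997) that value cannot settle whether same-numbered libraries are pairs. All 7 called members were among those called by DESeq2 and with the block. Without the filter on low counts 2 other plasma protein genes were called. When 1 library was left out, the calls ranged from 287 to 10995 genes, 2 to 20 members, 1 to 13 complement, 0 to 8 plasma protein, 0 to 16 signalling and 0 to 7 liver factor genes. The low ends came without a control library and the high ends without a treated one, when the spread is that of the remaining pair. Called members lost without either control library were Alb, Ttr, Rbp4 and Serping1, and without control replicate 2 also Itih2 (edgeR adjusted p = 0.077). Without normalization beyond library size Serping1 missed the threshold (edgeR adjusted p = 0.0502) and the median of all tested genes moved to -0.11, with that of the members at 0.97. The median of the members ranged from 1.11 to 1.34 with a library left out. The sign turned for 2 uncalled members: Saa4 without control replicate 1 (-0.42, range to 1.12), and C5 without treated replicate 2 (0.39) or control replicate 1 (0.30, range from -0.90 to 0.39). At 25 µM, 0 members had a peak within 10 kb, 11 within 100 kb, and 0 within 50 kb once peaks scoring under 100 were dropped. At 0.5 µM, 2 had one within 100 kb. With 2 libraries a group and members at a few counts, absence of a call does not show that a level stayed the same.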

Other observations

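Liver-enriched transcription factors drive plasma protein genes in hepatocytes. Of 18 such genes 10 were tested and 0 changed at an adjusted p under 0.05 (edgeR), where 4.63% of all tested genes did. An unadjusted p under 0.05 was found in 5, beside 30.7% of all tested genes. DESeq2 called 3, all lower, where it called 14.6% of all genes tested. The values lay on both sides: 7 of the 10 had a log2 fold change above 0, beside 49.6% of all tested genes, and the median was 0.19. It was 0.13 in the 8 that passed the filter on the level of either group alone. The treated libraries lay above both controls in 4 and below them in 3. Groups that did not overlap were thus found in 70% of these factors, near the 66.3% of all tested genes. Onecut2, which binds the HNF6 motif, had 472 and 206 counts in the treated and 910 and 945 in the control libraries (log2 -1.25, SE 0.353, edgeR adjusted p = 0.109). The bile acid receptor Nr1h4 had 160 and 98 counts in the treated and 276 and 336 in the control libraries (log2 -1.02, SE 0.241, edgeR adjusted p = 0.085). Foxa1, a pioneer factor, had 846 and 490 counts in the treated and 1221 and 1362 in the control libraries (log2 -0.74, SE 0.223, edgeR adjusted p = 0.122). These 3 had lower counts in each treated library and are the ones DESeq2 called. Hnf4a pointed the other way at low counts (log2 0.97, SE 0.351, edgeR adjusted p = 0.155). It passed the filter only through the treated libraries and was so favoured to appear higher. They were named after their values were seen.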
